A study of Mus musculus with 4 samples.

Results

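The 10 genes described here encode proteins that make, recycle, use and break down glutathione. They are Slc7a11, Gclc, Gclm, Gss, Gsr, Gpx1, Gpx4, Glrx, Glrx3 and Ggct, and they were chosen as a list by gene symbol, with results of these data already known. All 10 were among the 40213 symbols of the deposited tables, and all 10 passed the filter on low values (1 scaled CPM or more, reached by 2 or more libraries). RNA sequencing compared the mouse macrophage line RAW264.7 after 48 h with the material titled CuNZ@Gel (n = 2 libraries) or with the material titled Gel (n = 2 libraries). Both groups are the same line at the same time, and the Gel libraries are read here as the hydrogel without CuNZ, from the titles alone. The labels neither spell out CuNZ nor give its dose, and they include no untreated cells. Whether replicates came from separate cultures is not stated, so p-values reflect only how far these libraries scatter, and that scatter may be technical. The scatter used for each gene draws partly on that of all tested genes, so the size of a p-value also depends on the fit.

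Glutathione is a tripeptide of glutamate, cysteine and glycine that cells use as a reductant. Its supply is limited by cysteine, which macrophages take up largely as cystine, and by glutamate-cysteine ligase, the enzyme that joins the first pair of amino acids. Glutathione peroxidases spend it on reducing peroxides, glutathione reductase regenerates it with NADPH, and glutaredoxins use it to reduce disulfides or to carry iron-sulfur clusters. Several of these genes are known targets of the transcription factor NRF2, which responds to oxidants and electrophiles, and Slc7a11 is also a known target of ATF4, the transcription factor of the integrated stress response.

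Recovered library totals were 14879849 and 14738509 reads for CuNZ@Gel and 14731682 and 13716924 reads for Gel. Levels are given in scaled CPM, which is CPM (each gene's reads relative to the library total) divided by 1 further factor per library, and changes are limma estimates on the deposited log2(scaled CPM + 1) scale, where low genes appear to change less than they did. The cells carried macrophage transcripts: 9 of 10 macrophage markers were tested, and their summed level was 9164 and 8924 scaled CPM in CuNZ@Gel and 5665 and 5833 in Gel. Lyz2 alone held 6000 and 5776 scaled CPM of the sums in CuNZ@Gel and 3004 and 3155 in Gel. Of the tested markers, 6 were raised and 2 (Cd68 and Fcgr1) lowered, beside 32.2% raised and 34.8% lowered over all tested genes. Mertk did not pass the filter. The 12 markers of other cell types summed to 2.77 and 2.16 scaled CPM in CuNZ@Gel and to 0.435 and 1.17 in Gel. The T cell, B cell and natural killer cell markers Cd3e, Ms4a1 and Ncr1 were at 0 in every library. Pecam1, an endothelial and leukocyte marker, was the only marker of this list tested, at 2.21 and 1.40 scaled CPM in CuNZ@Gel and 0.0725 and 0.0777 in Gel. The Gel values are 1 read each. Pecam1 passed the filter through the CuNZ@Gel libraries alone and could only be higher there.

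The cystine antiporter gene Slc7a11, the synthesis genes Gclc, Gclm and Gss, the reductase gene Gsr and the glutaredoxin gene Glrx were higher in CuNZ@Gel. The peroxidase genes Gpx1 and Gpx4 and the turnover gene Ggct were lower. The call on Gpx4 was lost after a correction for transcript length and GC content (log2 change 0.05, adjusted p = 0.484). The call on Ggct was lost without CuNZ@Gel replicate 1 (-0.33, adjusted p = 0.108) and without the filter on low values (adjusted p = 0.0930). In numbers, 6 of the 10 members were raised at an adjusted p under 0.05, where 32.2% of all 11588 tested genes were raised. Another 3 were lowered, where 34.8% of all tested genes were lowered, and Glrx3 did not pass the threshold. The 9 members called stand against 67.1% of all tested genes called in either direction. CuNZ@Gel and Gel libraries were fully separated for 9 of the 10 members and for 83.2% of all tested genes. A log2 change of at least 1 in size was seen for 5 of the 10 members and for 13.2% of all tested genes. The median log2 change was 0.89 over the members and -0.03 over all tested genes. In bulk RNA, a change in the share of cells that express a gene and a change in its RNA per cell cannot be told apart.

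**Figure D1:**
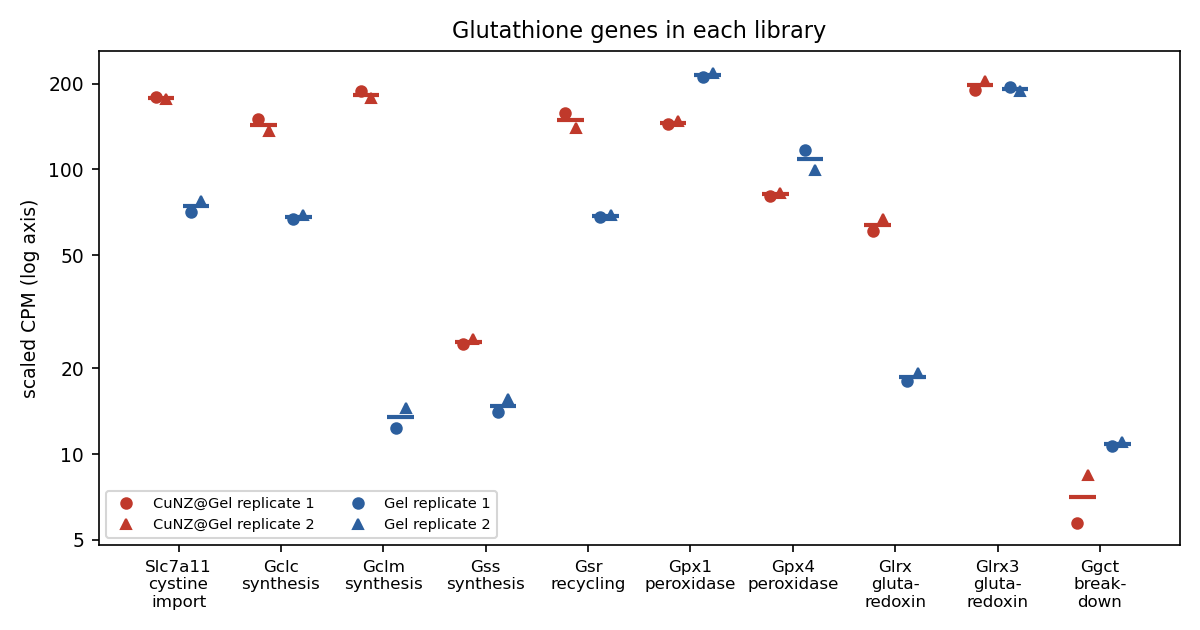
Level of each of the 10 glutathione genes in each library in scaled CPM on a log axis, with points for single libraries (circles for replicate 1, triangles for replicate 2) and short lines for group means, CuNZ@Gel to the left of Gel. For Glrx3 the libraries of the groups interleave. For the other 9 genes they do not, with Gclm the farthest apart, at 188 and 178 scaled CPM in CuNZ@Gel and 12.4 and 14.6 in Gel.

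Promoter sequence was available for 8 of the 10 members in the RefSeq table used here (build GRCm38.p6, 250 bases before to 50 bases after each start), and the table gave none for Gclc and Gsr. The windows were searched on both strands for the core of the antioxidant response element, the sequence recognised by NRF2 (TGACNNNGC), and for the core of the CEBP-ATF response element, recognised by ATF4 (TGATGNAA). The first was present in 12.4% and the second in 3.97% of all 32851 promoter windows. Counted by gene, with a match in at least 1 window, the shares were 14% and 4.51% of 27025 genes. Of the 8 members with sequence, 2 held the first and 1 held the second. No match in the members overlapped another. The 3 members with a match are printed because their genes moved in different ways: Gclm rose the most, Ggct fell, and Slc7a11 rose and holds the other motif. Matches are in capitals, each sequence reads 5′ to 3′ on the strand of the gene, and positions count from the start site to the first base of the match on that strand.
Gclm, chr3:122245307-122245606, plus strand: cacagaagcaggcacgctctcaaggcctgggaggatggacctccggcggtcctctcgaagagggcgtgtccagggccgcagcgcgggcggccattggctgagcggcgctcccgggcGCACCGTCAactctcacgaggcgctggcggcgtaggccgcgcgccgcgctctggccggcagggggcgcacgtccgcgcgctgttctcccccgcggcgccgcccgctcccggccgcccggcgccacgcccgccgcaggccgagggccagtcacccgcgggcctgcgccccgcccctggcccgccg
Ggct, chr6:54992818-54993117, minus strand: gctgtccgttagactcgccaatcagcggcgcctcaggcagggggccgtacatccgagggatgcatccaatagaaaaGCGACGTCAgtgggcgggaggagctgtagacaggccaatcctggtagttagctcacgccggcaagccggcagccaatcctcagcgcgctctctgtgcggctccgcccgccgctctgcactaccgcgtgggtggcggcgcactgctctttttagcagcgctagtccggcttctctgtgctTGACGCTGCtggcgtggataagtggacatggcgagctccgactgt
Slc7a11, chr3:50443564-50443863, minus strand: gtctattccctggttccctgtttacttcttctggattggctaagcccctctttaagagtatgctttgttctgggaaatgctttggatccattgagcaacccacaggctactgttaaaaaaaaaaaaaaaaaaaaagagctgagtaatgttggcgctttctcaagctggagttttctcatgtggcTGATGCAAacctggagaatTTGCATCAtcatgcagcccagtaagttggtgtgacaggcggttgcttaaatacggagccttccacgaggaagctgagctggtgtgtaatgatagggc
Gclm held 1 antioxidant response core at -134, on the opposite strand. Ggct held 2 such cores, at -174 on the opposite strand and at 6 on its own strand. Slc7a11 held no antioxidant response core but 2 CEBP-ATF cores on opposite strands, at -66 and -47. The windows of Gss, Gpx1, Gpx4, Glrx and Glrx3 held neither string of letters. A match is a string of letters and was not shown to be bound, and the search covered no distal enhancers.

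Slc7a11 encodes xCT, the light chain of the antiporter that brings cystine into the cell in exchange for glutamate. It had 180 and 176 scaled CPM in CuNZ@Gel, against 71.0 and 77.2 in Gel. Its libraries of the same group lay close together, and the CuNZ@Gel pair was well above the Gel pair. The difference of the means was 2.40-fold, with a log2 change of 1.25 ± 0.07 (SE) and a limma adjusted p of 1.41e-12. It was still raised, at a log2 change of 0.78, once length and GC effects had been removed from each library. Slc3a2, the heavy chain that carries xCT and several other transporters to the membrane, moved the other way. It had 138 and 152 scaled CPM in CuNZ@Gel, against 306 and 303 in Gel (log2 change -1.07 ± 0.06, adjusted p = 6.31e-12).

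Gclm and Gclc encode the modifier and the catalytic subunit of glutamate-cysteine ligase, which catalyses the first step of the synthesis. Gclm had 188 and 178 scaled CPM in CuNZ@Gel, against 12.4 and 14.6 in Gel. This came from 2991 and 2803 reads in CuNZ@Gel and from 171 and 187 reads in Gel, a 13.6-fold difference of the means. Its log2 change of 3.67 ± 0.09 (adjusted p = 2.18e-18) was the 15th highest of the 11588 tested genes. Gclc had 150.5 and 136 scaled CPM in CuNZ@Gel, against 67.2 and 68.9 in Gel. Both subunit genes were thus higher in each CuNZ@Gel library than in either Gel library, but by different amounts, since the log2 change of Gclc was 1.06 ± 0.07 (adjusted p = 3.70e-11).

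The balance of the subunit transcripts was therefore also read within each library, where the scaling of libraries plays no part. The ratio of Gclm to Gclc in reads per kilobase was 0.767 and 0.799 in CuNZ@Gel and 0.113 and 0.129 in Gel. The lengths used were those of the longest coding transcripts of GENCODE vM21, 5589 bases for Gclm and 3423 bases for Gclc. The size of this ratio rests on those lengths, whereas the contrast between the groups does not rest on the lengths chosen. A difference between libraries tied to transcript length or GC content would remain in that contrast. After the correction for length and GC content the log2 changes were 3.39 for Gclm and 1.05 for Gclc. The ratios are given as values, with no test.

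Gss encodes glutathione synthetase, which adds glycine in the second step. It had 24.3 and 25.4 scaled CPM in CuNZ@Gel, against 14.1 and 15.6 in Gel, a 1.68-fold difference of the means. The groups did not overlap, and its log2 change of 0.71 ± 0.11 (adjusted p = 1.12e-05) was the smallest among the 6 raised members. Gssos2, an antisense RNA of the locus, moved with it: it had 108 and 114 reads in CuNZ@Gel and 6 and 11 reads in Gel, beside 386 and 400 reads of Gss in CuNZ@Gel and 194 and 200 in Gel. It shares 4.60% of the 31-base words of the Gss transcript. The use of strand in counting is not given in the sources used here, so reads in that shared stretch cannot be assigned to Gss or Gssos2. Acss2 shares 5.38% of the words through a transcript with a retained intron, and it was raised too (log2 change 0.55).

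Gsr encodes glutathione reductase, which turns oxidised glutathione back into the reduced form. It had 157 and 140 scaled CPM in CuNZ@Gel, against 68.0 and 69.3 in Gel. Its 2.16-fold difference of the means (log2 change 1.10 ± 0.07, adjusted p = 2.62e-11) was close in size to those of Gclc and Slc7a11. Within each library, the ratio of Gsr to Gss in reads per kilobase was 4.75 and 4.04 in CuNZ@Gel and 3.55 and 3.27 in Gel. The ratio was higher in both CuNZ@Gel libraries, but the step between the nearest libraries of the groups was smaller than the difference between the CuNZ@Gel replicates.

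Gpx1 and Gpx4 encode the selenium-dependent glutathione peroxidases that reduce hydrogen peroxide and lipid hydroperoxides in most cells. Gpx1 had 144 and 148 scaled CPM in CuNZ@Gel, against 210 and 218 in Gel. Its groups were well apart, with a 0.681-fold ratio of the means (log2 change -0.55 ± 0.06, adjusted p = 1.22e-07). Gpx4 had 80.7 and 82.7 scaled CPM in CuNZ@Gel, against 117 and 99.6 in Gel. Its Gel replicates differed more from each other than its CuNZ@Gel replicates did, and Gel replicate 2 was the nearer to the CuNZ@Gel libraries (log2 change -0.40 ± 0.08, adjusted p = 1.29e-04). The ratio of Gpx1 to Gpx4 in reads per kilobase was 1.66 in both CuNZ@Gel libraries and 1.66 and 2.03 in the Gel libraries, so the groups were not separated by more than the spread of the Gel pair.

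The values of the peroxidase genes moved with the processing. Gpx4 and Gpx1 have the shortest coding transcripts of the 10 members, 995 and 1072 bases, and the highest GC contents, 60.2% and 57.2%. Over all tested genes with a matched transcript, a description across genes that share libraries, longer transcripts had higher changes (Pearson r = 0.287 with log2 length). After each library was corrected for length and GC content, Gpx1 was still lowered, at -0.19 (adjusted p = 0.00679), and Gpx4 no longer passed, at 0.05 (adjusted p = 0.484). Scaling by total reads alone shifted the median change of the whole table by 0.18 on the log2 scale, and Gpx1 and Gpx4 were then lowered by smaller amounts, -0.36 and -0.21. A near-identical copy, Gpx4-ps2, shares 66.4% of the 31-base words of the Gpx4 transcript, so the level of Gpx4 is uncertain. No value is listed under the symbol Gpx4-ps2, so the level of the copy cannot be seen. Other members of the family carried few or no reads. Gpx3 was at 0 in both CuNZ@Gel libraries and at 0.0725 and 0.311 scaled CPM in Gel. Gpx2, Gpx5, Gpx6 and Gpx7 were at 0 in every library, and 1 read of Gpx8 was seen in Gel replicate 2.

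**Figure D2:**
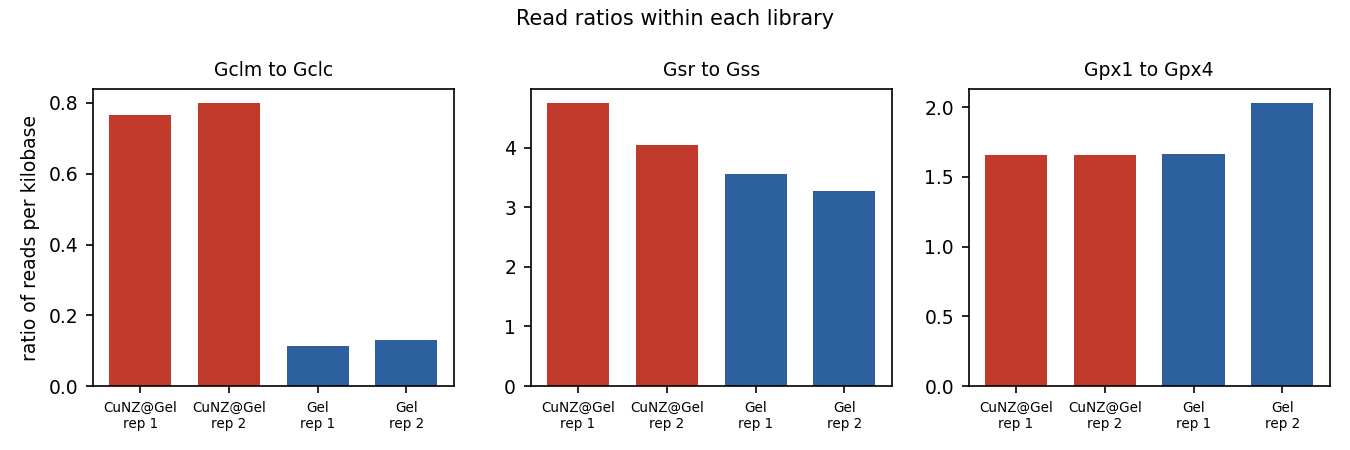
Ratio of reads per kilobase of transcript for 3 pairs of glutathione genes in each library, with 1 bar per library and CuNZ@Gel to the left of Gel. Gclm to Gclc was 0.767 and 0.799 in CuNZ@Gel and 0.113 and 0.129 in Gel, whereas Gpx1 to Gpx4 was 1.66 in 3 of the libraries and 2.03 in Gel replicate 2.

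The glutaredoxin genes behaved differently from each other. Glrx encodes the cytosolic glutaredoxin that removes glutathione from protein thiols. It had 60.7 and 67.0 scaled CPM in CuNZ@Gel, against 18.0 and 19.3 in Gel, a 3.42-fold difference of the means (log2 change 1.72 ± 0.09, adjusted p = 1.26e-12). After Gclm this was the second highest change of the members. Glrx3 encodes a multidomain glutaredoxin that works in the traffic of iron-sulfur clusters. It had 190.5 and 204 scaled CPM in CuNZ@Gel, against 195 and 189 in Gel, and the libraries of the groups interleaved. Its log2 change of 0.04 ± 0.06 did not pass (adjusted p = 0.601). Under scaling by total reads alone it passed as raised, at 0.23 (adjusted p = 0.00383), and without CuNZ@Gel replicate 2 its sign turned, at -0.01. Gm12669, a processed pseudogene that shares 23.1% of the 31-base words of Glrx3, had 9.31 and 10.0 scaled CPM in CuNZ@Gel and 9.43 and 9.37 in Gel.

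Ggct encodes the gamma-glutamylcyclotransferase that splits gamma-glutamyl dipeptides, a step in the turnover of glutathione. It had 5.74 and 8.44 scaled CPM in CuNZ@Gel, against 10.7 and 11.1 in Gel. These values rest on 91 and 133 reads in CuNZ@Gel and on 148 and 142 reads in Gel, the fewest of any member. The CuNZ@Gel replicates were far from each other, and the one nearer to Gel was replicate 2. The log2 change was -0.58 ± 0.16 (adjusted p = 0.00317). Without CuNZ@Gel replicate 1 the gene no longer passed, at -0.33 (adjusted p = 0.108).

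**Figure D3:**
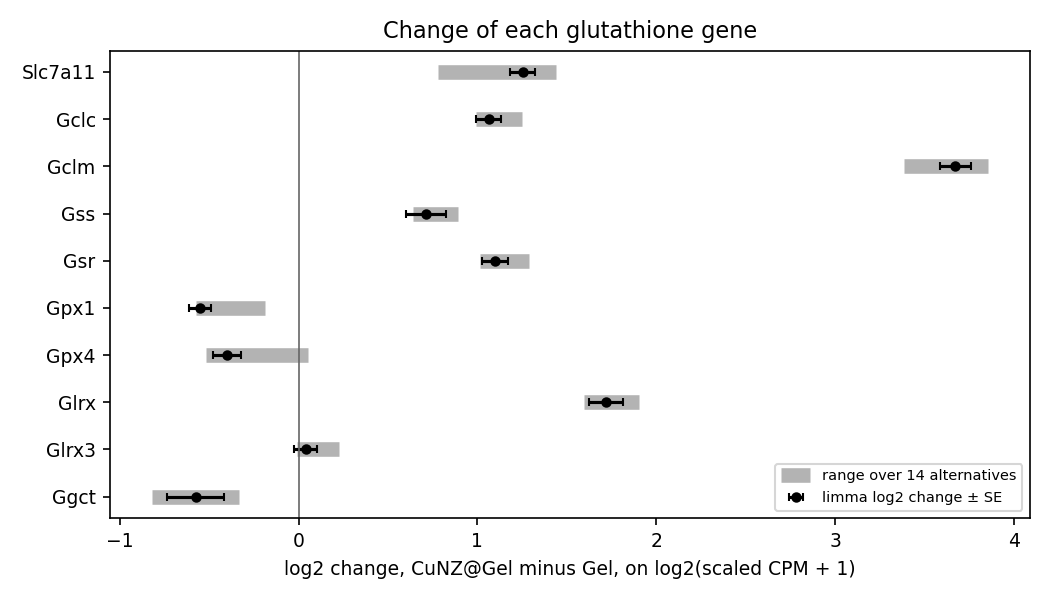
Log2 change of each of the 10 glutathione genes, CuNZ@Gel minus Gel, on the log2(scaled CPM + 1) scale, with points for the limma estimate, black bars for its SE and grey bars for the range over 14 alternative analyses. The grey bars of Slc7a11, Gclc, Gclm, Gss, Gsr and Glrx stay above 0 and those of Gpx1 and Ggct stay below 0, while those of Gpx4 and Glrx3 cross it.

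Further genes of the glutathione cycle were called at about the rate of all tested genes. Of 26 listed genes for precursor supply, breakdown, transport and related peroxidases and reductases, 14 were tested. The test called 4 raised and 5 lowered (median -0.05 on the log2 scale), beside 32.2% raised and 34.8% lowered over all tested genes. Under scaling by total reads alone 5 were raised and 3 lowered, when 5036 of all tested genes were raised and 2869 lowered. Chac1, which degrades glutathione in the cytosol, had 4.10 and 5.08 scaled CPM in CuNZ@Gel, against 42.9 and 38.4 in Gel (log2 change -2.90). Cth, the cystathionine gamma-lyase that makes cysteine from methionine-derived sulfur, had 5.11 and 5.01 scaled CPM in CuNZ@Gel, against 21.1 and 23.1 in Gel (log2 change -1.93). Both fell, by several times the spread of their replicates. Chac2, the paralog of Chac1, at a log2 change of 0.31, did not pass (adjusted p = 0.0553).

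The exporters rose. Abcc1, which pumps oxidised glutathione and glutathione conjugates out of the cell, had 193 and 177 scaled CPM in CuNZ@Gel, against 56.9 and 66.9 in Gel (log2 change 1.57). Abcc4, a related organic anion exporter, rose by 0.98. Txnrd3, a thioredoxin-glutathione reductase, rose by 0.70, on only 55 and 57 reads in CuNZ@Gel and 27 and 21 in Gel. Dpep2, a membrane dipeptidase, rose by 0.30. Slc25a39, the importer of glutathione into mitochondria, and Glrx5, a mitochondrial glutaredoxin of iron-sulfur cluster assembly, fell by 0.30 and 0.34. Slc25a39 no longer passed after correction for length and GC content, at 0.05, or under scaling by total reads, at -0.11. Glrx5 did not pass with libraries scaled by total reads only, without the filter, without Gel replicate 1 or without CuNZ@Gel replicate 1. Dpep2 did not pass without the filter, without Gel replicate 2 or without either CuNZ@Gel replicate.

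Of 30 listed enzymes that use glutathione or act on its conjugates, here called glutathione-using enzymes, 22 were tested. The test called 12 raised and 8 lowered, beside 32.2% raised and 34.8% lowered over all tested genes. The median of the list was 0.31 on the log2 scale. Of the 12, 6 (Gsta1, Gsta2, Gsta3, Gstp3, Gstt1 and Ptges) passed the filter through the CuNZ@Gel libraries alone and could only be higher there, so neither the count nor the median is evidence of a direction. With libraries scaled by total reads only the split was 14 raised and 5 lowered, and with a filter at 5 scaled CPM 7 were raised. Esd, which hydrolyses S-formylglutathione, had 840 and 925 scaled CPM in CuNZ@Gel, against 171 and 161 in Gel (log2 change 2.40). The transferase genes Gstm1, Mgst2 and Gstp1 rose by 1.36, 1.62 and 1.51. Gsta3, a further transferase, had 102 and 101 reads in CuNZ@Gel and 0 in both Gel libraries, a count that allows up to 0.217 and 0.234 scaled CPM, against 6.43 and 6.41 in CuNZ@Gel. Ltc4s, which joins glutathione to leukotriene A to make a cysteinyl leukotriene, fell to 14.5 and 16.8 scaled CPM in CuNZ@Gel, against 36.9 and 40.0 in Gel. Transferase genes of 1 class have close paralogs, so reads may have been split between them.

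The members were set beside the genes most often grouped with them. Of 22 other NRF2 targets, 18 were raised and 1 was lowered, beside 32.2% raised and 34.8% lowered over all tested genes. Their median was 1.30 on the log2 scale. Nqo1, 1 of the 18, passed the filter through the CuNZ@Gel libraries alone. Those with the smallest p, Hmox1, Cat, Prdx1, Me1, Ephx1 and Blvrb, rose by 1.81 to 3.80. Of 24 tested ATF4 targets, 24 were lowered and 0 raised, beside the same shares of 34.8% and 32.2%, with a median of -1.95. The 6 with the smallest p, Nupr1, Pck2, Ddit3, Trib3, Asns and Shmt2, fell by 2.12 to 3.47. That list holds Chac1, Slc3a2 and Cth, which the list of cycle genes holds too. Slc7a11, itself a known ATF4 target, rose by 1.25 where each of these 24 fell.

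**Figure D4:**
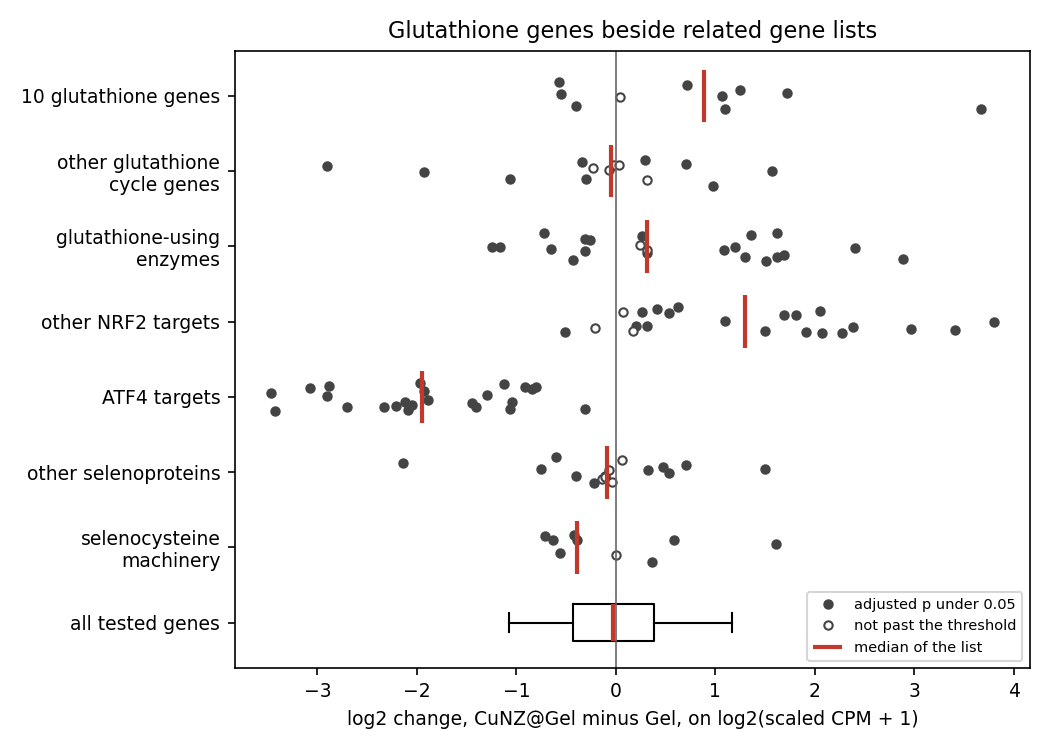
Log2 change, CuNZ@Gel minus Gel, of each tested gene of 7 lists, with filled points for an adjusted p under 0.05, open points for genes past no threshold, red lines for medians and, in the lowest row, a box for all tested genes with whiskers from the 5th to the 95th percentile. The 10 glutathione genes have a median of 0.89, between those of the other NRF2 targets at 1.30 and of all tested genes at -0.03, and the ATF4 targets lie below 0 throughout.

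Gpx1 and Gpx4 are selenoproteins, whose translation inserts selenocysteine at a UGA codon. Among 16 other selenoprotein genes that were tested, 5 rose and 5 fell (median -0.09), close to the shares of 32.2% and 34.8% over all tested genes, and 6 rose and 3 fell under scaling by total reads alone. Without CuNZ@Gel replicate 1, 3 were lowered. Txnrd1, the cytosolic thioredoxin reductase, rose by 1.50, and Selenot and Selenos, of the endoplasmic reticulum, by 0.53 and 0.47. Selenow, a small redox protein, fell to 7.50 and 10.0 scaled CPM in CuNZ@Gel, against 49.0 and 35.4 in Gel (log2 change -2.14). Selenoh and the mitochondrial reductase Txnrd2 fell as well (-0.76 and -0.60). Txnrd1 is counted among the other NRF2 targets too, and Txnrd3 is counted both here and among the cycle genes.

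A list here called selenocysteine machinery held 9 genes for making, inserting or breaking down selenocysteine or for taking up selenoprotein P. Of these, 3 were raised and 5 lowered (median -0.39). Over all tested genes, 32.2% were raised and 34.8% lowered. Without Gel replicate 1 or without CuNZ@Gel replicate 1, 3 were lowered, and with libraries scaled by total reads only the split was 3 and 3. Lrp8, a receptor that takes up selenoprotein P, had 50.1 and 44.9 scaled CPM in CuNZ@Gel, against 15.1 and 14.7 in Gel (log2 change 1.61). Secisbp2l, a paralog of the factor that binds the selenocysteine insertion element, rose by 0.59. Scly, which frees selenium from selenocysteine, fell by 0.71, and Eefsec, the elongation factor for selenocysteine, by 0.63. Trnau1ap and Sepsecs, which act on the selenocysteine tRNA, fell by 0.57 and 0.39. Sepsecs did not pass with libraries scaled by total reads only, without Gel replicate 1 or without CuNZ@Gel replicate 1.

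The genes closest in pattern to Gclm and to Ggct, the members with the highest and the lowest change, were sought among 9688 tested genes whose mean reached 5 scaled CPM. Likeness was the Euclidean distance between centred log2 values over the 4 libraries, which with 2 groups of 2 mostly reads the size of the change. Nearest to Gclm were Klra2, Slc39a4, Slc40a1, Cat and Hmox1, at distances of 0.24 to 0.30. Slc40a1, the iron exporter ferroportin, had 83.3 and 88.9 scaled CPM in CuNZ@Gel and 6.59 and 7.55 in Gel. Klra2, a killer cell lectin-like receptor, had 17.3 and 16.6 scaled CPM in CuNZ@Gel and 0.507 and 0.389 in Gel. Slc39a4 had 19.7 and 21.2 scaled CPM in CuNZ@Gel and 0.652 and 0.545 in Gel. Klra2 and Slc39a4 passed the filter through the CuNZ@Gel libraries alone and could only be higher there. Their changes also appear smaller on the log2(scaled CPM + 1) scale than they were. Nearest to Ggct were Hspbap1, Thoc6, Morn2, Tmem256 and Endog, at distances of 0.06 to 0.09. In each of these 5 genes, as in Ggct, CuNZ@Gel replicate 1 was the lowest library. They were chosen for likeness to Ggct, so the shared lowest library follows from the choice and is no separate observation. Thoc6, for example, had 12.2 and 16.8 scaled CPM in CuNZ@Gel and 22.2 and 21.6 in Gel.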

How the data were processed

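The authors deposited 1 log2 value for each gene symbol in each library, to 3 decimals. Per the submitters' processing notes, build GRCm39 and the tools GATK, Salmon, STAR and fastp were named. No versions, settings, strand use or normalization are given there. The values show log2(x + 1), with x in CPM divided by 1 factor per library (1.07 and 1.07 for CuNZ@Gel, 0.937 and 0.936 for Gel) and not by gene length. Of values of at most 1 scaled CPM, 93.1% to 93.8% were whole multiples of 1 read, within 0.02 reads plus rounding, which gave the reads. Limits for 0 reads are 3 reads and cover counting error only.

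The filter of 1 scaled CPM in 2 libraries kept 11588 genes. These were fitted by limma 3.58.1 (R 4.3.3) with a variance trend and the group alone in the model, with Benjamini-Hochberg adjustment over all of them and a threshold of 0.05. Members, lists and rules were chosen with earlier results of these data known. The genes named were the 10 members, the cycle genes that passed, up to 6 genes per other list with the smallest p, and the 5 nearest in pattern to 2 members. Chac2, the other peroxidases, Gssos2, Gm12669 and the cell type markers were named after their values were seen. No set tests were made. Transcript lengths and base composition were those of the longest GENCODE vM21 transcript, on another build than the files, for 95.8% of tested genes. The procedure was tested on simulated data in which few genes changed, equally up and down, with scaling by library totals alone. Calls that move with the scaling were therefore not tested by it.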

Additional observations from a re-analysis of the deposited data

How the results depend on the processing

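Each member was refitted under 14 alternatives. The 6 raised members stayed raised and Gpx1 stayed lowered in all 14. With libraries scaled by total reads only, Glrx3 was raised (0.23), and 3 cycle genes, 5 glutathione-using enzymes, 3 selenoprotein genes and 3 selenocysteine machinery genes were lowered. All tested genes were then raised in 5036 and lowered in 2869 cases (63.7% of calls raised), against 3737 and 4033 (48.1%). Without the filter Ggct did not pass (-0.58, adjusted p = 0.0930). The limma adjusted p of Gclm was 6.91e-04 without the filter and 2.18e-18 with it, at the same log2 change of 3.67. With the filter at 5 scaled CPM, which tests fewer genes, 7 glutathione-using enzymes were raised. After the length and GC correction Gpx4 was at 0.053, Glrx3 at -0.0080 and Slc25a39 at 0.048, and the cause was not tested. With 1 library left out, where a lone library is assumed to vary like the other group, Ggct ranged from -0.82 to -0.33 and Glrx3 from -0.010 to 0.088. Lowered members then numbered 2 to 3, lowered selenoprotein genes 3 to 4 and lowered selenocysteine machinery genes 3 to 5. The replicate number as a block left the members at 6 raised and 3 lowered and gave 3589 raised and 3900 lowered genes in all. Same-numbered libraries deviated with a correlation of -0.12, so a crossed block was added after the data were seen: 6 members were raised and 3 lowered, with 4030 and 4340 genes in all. The planned edgeR test was not run. The deposited values are log2, and limma-voom was fitted to the recovered reads. Among the members, depth limits mainly Ggct, with 91 to 148 reads per library.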
